A study of Mus musculus with 12 samples.

Results

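The cytosolic ribosomal protein genes were taken by symbol from the 24421 genes counted in every library: all symbols of the Rpl and Rps families, the stalk genes Rplp0 to Rplp2 and Rpsa. Symbols with the pseudogene mark ps and the ribosomal S6 kinases were left out. This gave 84 genes, of which 43 encode core proteins of the large subunit, 31 core proteins of the small subunit and 3 the stalk, and 7 are paralogs of core genes. Bulk RNA was sequenced from Min6, a mouse pancreatic beta-cell line labelled wild type. All 12 libraries came from cells that received an adenovirus for 48 h and 0.3 mM PA, a name the labels do not spell out, for 24 h. The virus carried a control hairpin (sh-ctrl) in 6 libraries and a hairpin against Il22ra1 (sh-Il22ra1), a subunit of the interleukin 22 receptor, in the other 6. No library without virus or without PA was analysed here. Whether the 6 libraries of a group stem from separate cultures is not in the labels. Every p value therefore rests on library-to-library spread alone, and that spread may be technical.

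Ribosomal proteins fold around the ribosomal RNAs to make a small subunit, which reads the mRNA, and a large subunit, which joins amino acids. The mature ribosome holds most of them in equal number, and their mRNAs share a run of pyrimidines at the 5′ end that lets mTOR signalling control their translation. A few have paralogs that are found mostly in particular tissues or are induced by stress, and in beta cells the translation apparatus serves a large demand for insulin synthesis.

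Reads assigned to genes numbered 13108494 to 15887448 per library. Il22ra1, the targeted gene, had 7 to 20 reads in the sh-ctrl libraries and 1 to 4 in the sh-Il22ra1 libraries, and the groups did not overlap. Its level was 0.831 ± 0.256 CPM (counts per 1e+06 reads in genes, scaled by TMM; SD, n = 6) against 0.164 ± 0.0873 CPM (exact two-sided permutation test, p = 0.00216). All 8 beta-cell markers examined were detected, Ins2 at 49586 and 42876 CPM on average, and 6 of them were lower with sh-Il22ra1 in the test described below. Of 18 markers of other cell types, 6 had enough reads for a test and 5 of those were lower with sh-Il22ra1: the 18 summed to 268 to 324 CPM in sh-ctrl and 156 to 172 CPM in sh-Il22ra1, mostly Gcg, while Prss1 was at 0 in every library. Reads without an alignment took 12.8% to 17.3% of sh-ctrl reads and 8.71% to 11.8% of sh-Il22ra1 reads. The part of these 3 differences in the results below was not tested, and in bulk RNA fewer cells of a type and less RNA per cell cannot be told apart.

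The paralogs Rpl22l1 and Rpl7l1 rose and Rpl22 fell, and these were the 3 members with the smallest adjusted p; most others were not called. Of the 84 genes, 76 had enough reads for the test, 22 were higher and 2 lower at an adjusted p under 0.05 (quasi-likelihood test of edgeR, Benjamini-Hochberg adjustment over all 13102 tested genes), and 52 were not called. Over all tested genes 51.9% were called, 25.4% higher and 26.5% lower, and the shares among the ribosomal protein genes were 31.6%, 28.9% and 2.63%, so the share of higher genes was near that background. Their log2 changes were small but mostly of the same sign: 68 of 76 were positive, with a median of 0.16 against -0.0043 over all tested genes. The 6 libraries of each group did not overlap for 4 members, Rpl7a, Rpl7l1 and Rpl22l1 (higher) and Rpl22 (lower), whereas 28.1% of all tested genes had groups that did not overlap.

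**Figure D1:**
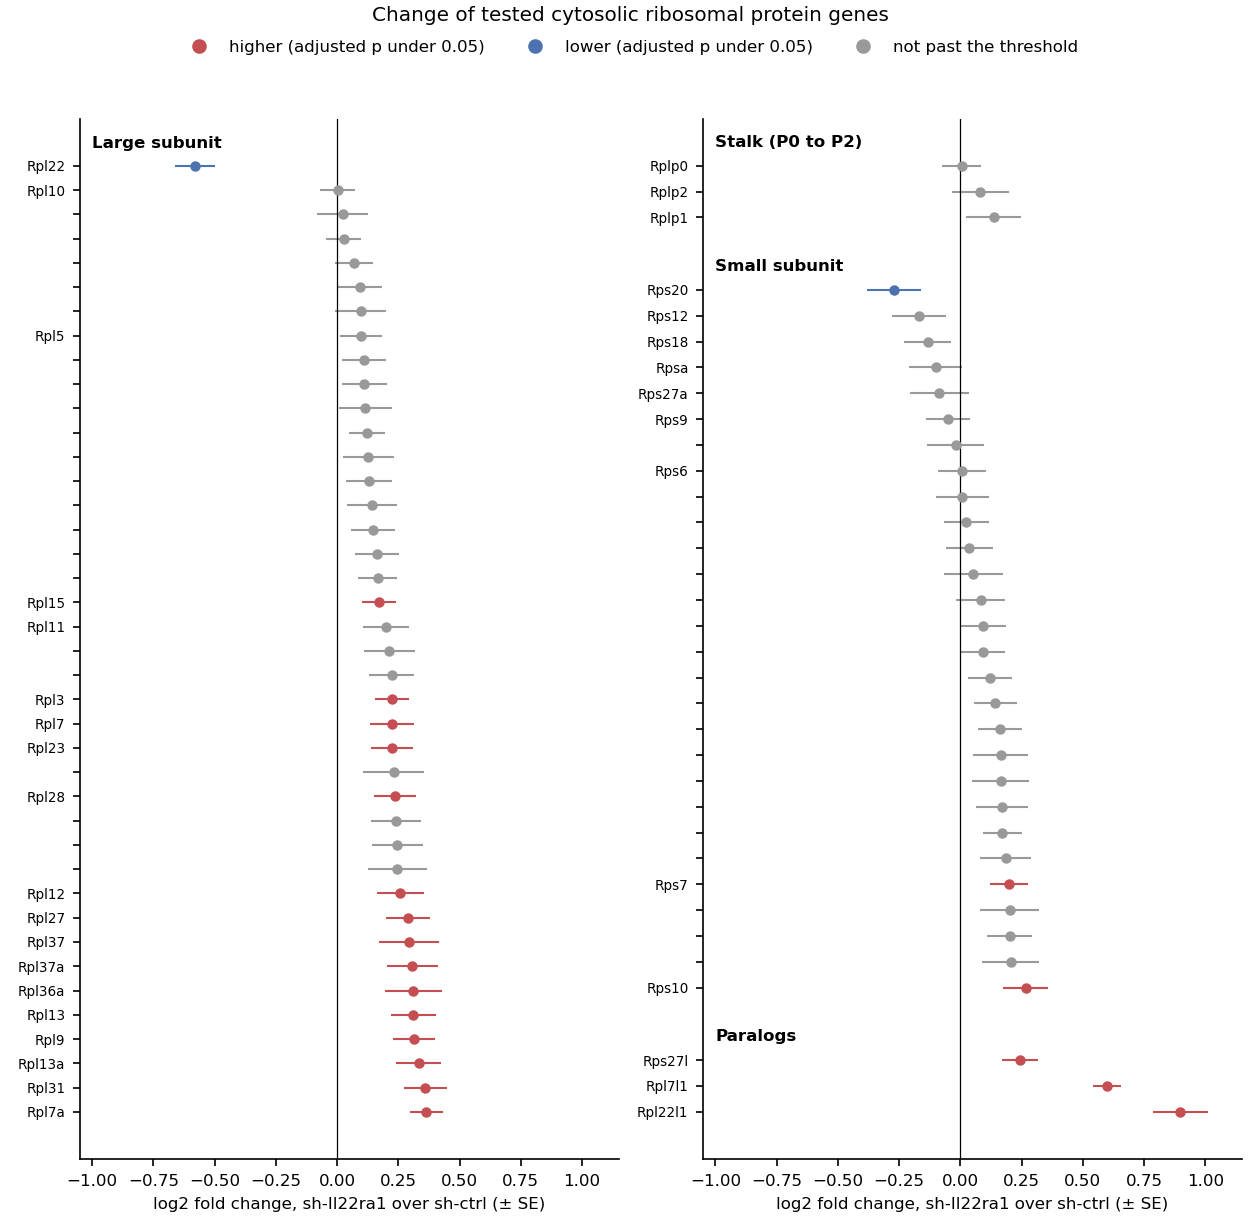
Log2 fold change of 74 of the 76 tested ribosomal protein genes, with names for those described in the text, sh-Il22ra1 over sh-ctrl (x axis, bars ± SE), ordered by size within the large subunit, stalk, small subunit and paralogs. Red points are higher and blue points lower at an adjusted p under 0.05 (edgeR quasi-likelihood test, Benjamini-Hochberg adjustment). Most points lie a little to the right of 0, with Rpl22 far to the left and Rpl22l1 and Rpl7l1 far to the right.

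These counts changed when some libraries were left out and when transcript length and GC content were corrected for. Within sh-ctrl, replicate 4 had the highest level of 57 of the 76 genes and replicate 1 of 18, while replicate 6 had the lowest level of 51 and replicate 2 of 25, so the sh-ctrl libraries differed in nearly all ribosomal protein mRNAs together. The median SD of log2 CPM was 0.246 for these genes in sh-ctrl (all tested genes 0.187) and 0.107 in sh-Il22ra1 (all tested genes 0.125). For the 4466 genes over 50 CPM, a level that most members exceeded, it was 0.138 in sh-ctrl and 0.0841 in sh-Il22ra1. Against those genes the members varied more in both groups. Without sh-ctrl replicate 4 the counts became 47 higher and 1 lower, with 56.9% of all tested genes called, and without replicates 1 and 4 together 63 higher and 1 lower, with 59.8% of all tested genes then called. Between them, replicates 1 and 4 held the highest sh-ctrl levels of most members, so leaving them out favoured higher calls. Leaving out another single library also moved the number of higher genes by more than 1.5 times: it was 13 without sh-ctrl replicate 2, 14 without replicate 3, 12 without replicate 5 and 12 without replicate 6, and 13, 14 and 12 without sh-Il22ra1 replicates 2, 4 and 6. In these fits 47.3% to 49.1% of all tested genes were called, against 51.9% in the reported fit. Ribosomal protein transcripts were short, with a median of 896.5 nt against 2993 nt over all tested genes. When each library was corrected for transcript length and GC content, 12 were higher and 14 lower, with 57.5% of all tested genes called (28.6% higher and 28.9% lower), and the median log2 change was 0.01, so the general upward shift was not present after that correction.

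**Figure D2:**
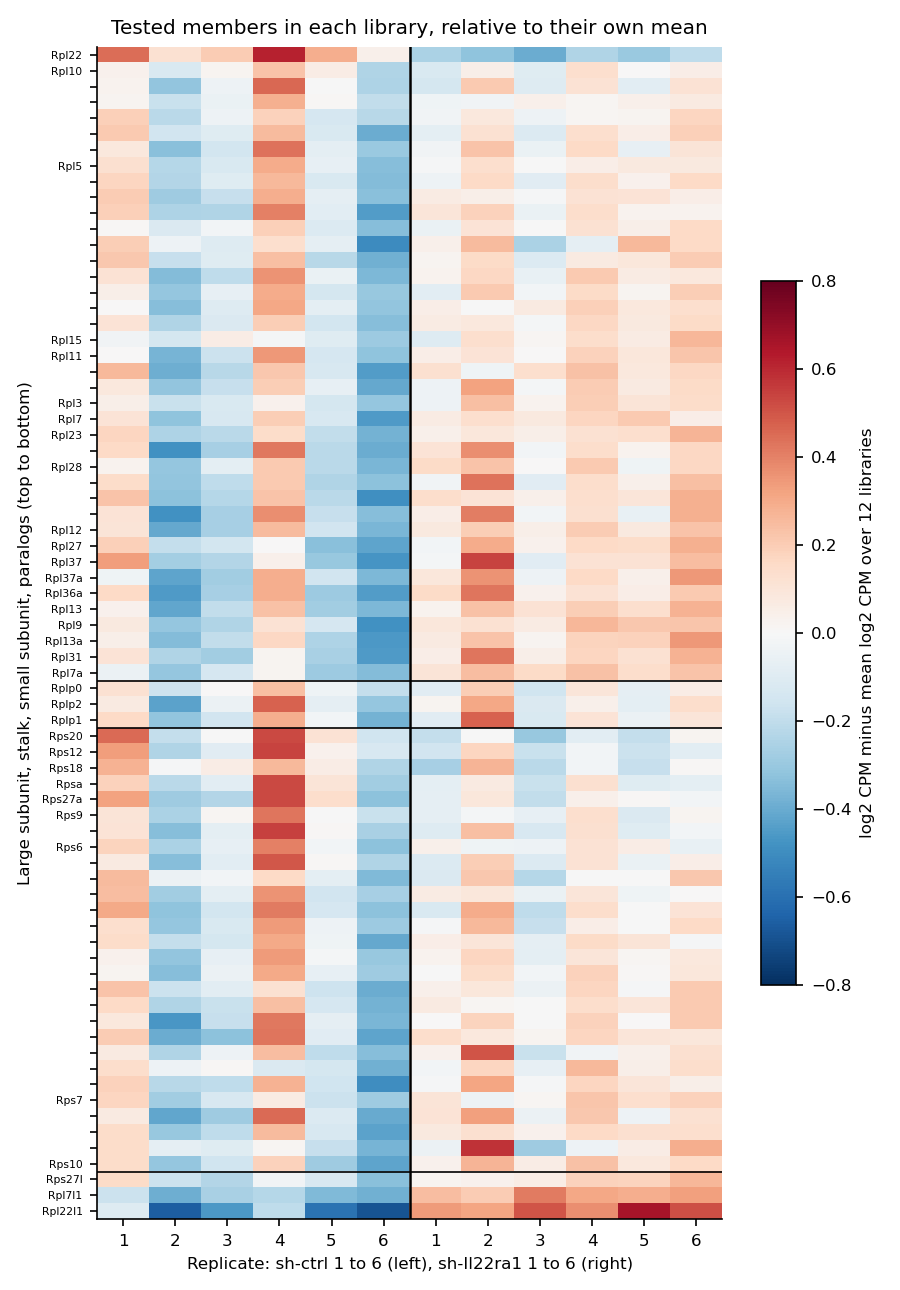
Log2 CPM of 74 of the 76 tested ribosomal protein genes (names for those described in the text) in each library minus the gene's mean over the 12 libraries (colour, from blue for lower to red for higher). Columns are sh-ctrl replicates 1 to 6 (left of the line) and sh-Il22ra1 replicates 1 to 6 (right). Nearly all genes are high in sh-ctrl replicates 1 and 4 and low in replicates 2 and 6, while Rpl22, Rpl7l1 and Rpl22l1 (first and last rows) separate the groups.

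Rpl22, a large-subunit protein that binds RNA and is dispensable for translation in several mouse tissues, lies at chr4:152325742-152334071 (mm10, plus strand, GENCODE M21). Its level in sh-ctrl had a lowest value of 136 CPM, a median of 158 CPM and a highest value of 203 CPM, and in sh-Il22ra1 the values were 101, 109.8 and 116 CPM. Every sh-Il22ra1 library was below every sh-ctrl library, and sh-ctrl replicate 4 was the highest. The mean fell from 163 ± 25.0 to 109 ± 5.21 CPM (SD, n = 6), a log2 change of -0.58 (SE 0.0821; edgeR quasi-likelihood test, Benjamini-Hochberg adjusted p = 1.11e-05).

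Rpl22l1, its paralog, lies at chr3:28805436-28807424 (plus strand). In other mouse cells Rpl22 protein is known to hold down the Rpl22l1 mRNA. Here Rpl22l1 ranged from 6.62 to 9.92 CPM in sh-ctrl (median 7.41) and from 13.3 to 16.9 CPM in sh-Il22ra1 (median 14.5). The groups were well apart, the lowest sh-Il22ra1 library being above sh-ctrl replicate 1, the highest of its group. The mean rose from 7.89 ± 1.39 to 14.6 ± 1.37 CPM, 1.85-fold (log2 change 0.90, SE 0.112; edgeR quasi-likelihood test, Benjamini-Hochberg adjusted p = 2.63e-06). For every 100 Rpl22 reads there were 4.36 to 5.47 Rpl22l1 reads in the sh-ctrl libraries and 12.1 to 15.6 in the sh-Il22ra1 libraries. These ranges could not overlap, because both genes were already separated in opposite directions, so the ratio is no further evidence.

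The coding sequences of both genes are shown because a read can be assigned only where they differ. They were identical at 259 of 369 aligned positions (70.2%), and the longest identical run was 26 bases. Below is their most similar region, bases 231 to 290 of the Rpl22 coding sequence and 213 to 272 of that of Rpl22l1 (GENCODE M21, identical at 52 of 60 positions), with the differing bases in capitals.
Rpl22: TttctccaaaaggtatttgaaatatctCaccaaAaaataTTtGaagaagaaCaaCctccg
Rpl22l1: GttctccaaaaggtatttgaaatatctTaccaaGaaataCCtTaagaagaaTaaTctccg
Copies elsewhere in the genome were a different matter. Of all 50-base windows of the Rpl22 transcript, 5.19% also occurred in another gene, and of the Rpl22l1 transcript 65.6%, mostly in the pseudogene Gm15421. That pseudogene was counted too and had 6 reads over the sh-ctrl libraries and 13 over the sh-Il22ra1 libraries.

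**Figure D3:**
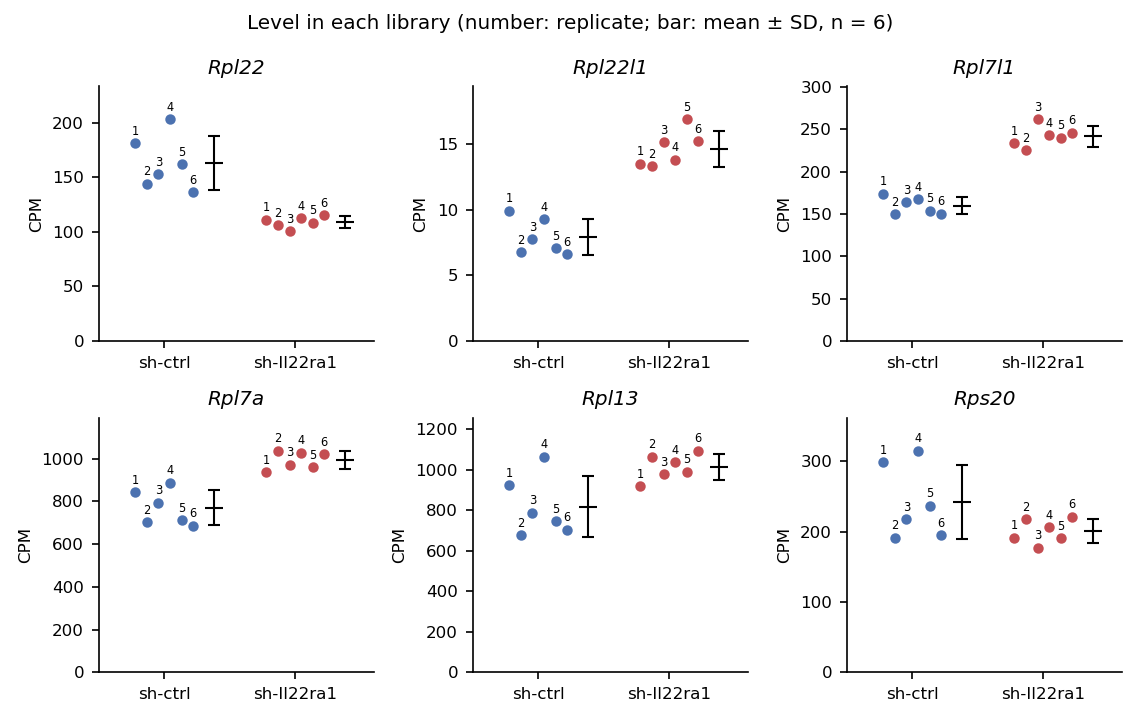
Level in CPM (y axis, from 0) of Rpl22, Rpl22l1, Rpl7l1, Rpl7a, Rpl13 and Rps20 in each library, with the replicate number beside each point and the mean ± SD of the 6 libraries of a group as a bar. The groups do not overlap for the first 4 genes, and overlap for Rpl13 and Rps20, where sh-ctrl replicates 1 and 4 are the highest of their group.

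Among the 40 tested core genes of the large subunit, 15 were higher, 1 (Rpl22) was lower and 24 were not called, with a median log2 change of 0.21. All 39 others had a positive value. Rpl7a, a core large-subunit protein (chr2:26910764-26913318, plus strand), ranged from 687 to 887 CPM in sh-ctrl (median 753) and from 936 to 1036 CPM in sh-Il22ra1 (median 995.2). It was the only core gene that rose without overlap between the groups (log2 change 0.36, SE 0.0678; edgeR quasi-likelihood test, Benjamini-Hochberg adjusted p = 2.10e-04). Of its 50-base windows 81.2% occurred in another gene, mostly in pseudogenes.

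Rpl13, a core large-subunit protein at chr8:123102350-123105244 (plus strand), had a lowest value of 677, a median of 767 and a highest value of 1066 CPM in sh-ctrl, and 920.1, 1015 and 1094 CPM in sh-Il22ra1. The groups overlapped through sh-ctrl replicates 1 and 4, and the other 4 sh-ctrl libraries were below every sh-Il22ra1 library. The mean rose from 818 ± 150 to 1015 ± 63.6 CPM (log2 change 0.31, SE 0.0937; edgeR quasi-likelihood test, Benjamini-Hochberg adjusted p = 0.00939).

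Rpl13a, Rpl31 and Rpl9, also of the large subunit, had smaller p values than Rpl13. Rpl13a, which also takes part in a complex that silences translation after interferon gamma, ranged from 514 to 790.5 CPM in sh-ctrl (median 605) and from 715 to 898 CPM in sh-Il22ra1 (median 800.3; log2 change 0.33; edgeR quasi-likelihood test, Benjamini-Hochberg adjusted p = 0.00529). Rpl31, a protein at the exit of the peptide tunnel, ranged from 274 to 403 CPM (median 314) and from 387 to 503 CPM (median 414; log2 change 0.36; edgeR quasi-likelihood test, Benjamini-Hochberg adjusted p = 0.00240). Rpl9 ranged from 209 to 317 CPM (median 257) and from 306 to 352 CPM (median 329; log2 change 0.31; edgeR quasi-likelihood test, Benjamini-Hochberg adjusted p = 0.00517). The groups overlapped for all 3 genes: 4 sh-ctrl libraries were below all sh-Il22ra1 libraries for Rpl13a and Rpl9, and 5, all but replicate 1, for Rpl31. Rpl9 was not called after the correction for length and GC content (log2 change 0.10, adjusted p = 0.0610 by the same edgeR test with Benjamini-Hochberg adjustment). The Rpl31 gene overlaps Tbc1d8 on the other strand in the annotation, and reads there may have been set aside as ambiguous. Ambiguous reads took 1.81% to 1.93% of sh-ctrl reads and 2.00% to 2.13% of sh-Il22ra1 reads. Their part in the values of Rpl31 and other overlapping members was not tested.

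The remaining large-subunit genes that rose were Rpl3, Rpl7, Rpl12, Rpl15, Rpl23, Rpl27, Rpl28, Rpl36a, Rpl37 and Rpl37a. Rpl3, which shapes the site of peptide bond formation, and Rpl27 were called in each of the 12 fits that left out 1 library. Rpl37, Rpl7 and Rpl15 were close to the threshold: Rpl37, the closest, had a log2 change of 0.29 with an adjusted p of 0.049984 (edgeR quasi-likelihood test, Benjamini-Hochberg adjustment). Each of these 3 lost its call without any of several libraries, Rpl7 in 10 of the 12 fits, Rpl37 in all but 4 and Rpl15 in all but 5, with the highest adjusted p at 0.0971, 0.151 and 0.163 in the same edgeR test. Of the 24 called members, 11 were called in every such fit: Rpl3, Rpl7a, Rpl7l1, Rpl9, Rpl13, Rpl13a, Rpl22, Rpl22l1, Rpl27, Rpl31 and Rps27l. The matching share of all tested genes is not given here, so this count has no background to be read against. Rpl5 and Rpl11, which together bind Mdm2 when ribosome assembly is disturbed, had log2 changes of 0.10 and 0.20 and were not called. Rpl10, which joins the large subunit last, stood at 1142 ± 126 and 1143 ± 77.0 CPM.

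The stalk of the large subunit recruits the elongation factors and is built from Rplp0, Rplp1 and Rplp2. None of the 3 was called. Rplp0 was 1771 ± 207 CPM in sh-ctrl and 1778 ± 166 CPM in sh-Il22ra1, and the log2 changes of Rplp1 and Rplp2 were 0.14 and 0.08. The highest sh-Il22ra1 library for Rplp1 was replicate 2 at 684 CPM, against a group median of 504 CPM.

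Small-subunit genes had smaller values than large-subunit genes at the median, a difference that was not tested. Of their 30 tested core genes, 4 were higher, among them Rps7 and Rps10, 1 was lower and 25 were not called, with a median log2 change of 0.11, and 7 of the 30 had a negative value. Rps10 ranged from 370.5 to 563 CPM in sh-ctrl (median 425) and from 506 to 597 CPM in sh-Il22ra1 (median 539.8), and its groups overlapped (log2 change 0.27; edgeR quasi-likelihood test, Benjamini-Hochberg adjusted p = 0.0224). The call was lost without sh-ctrl replicate 5 or 6 or sh-Il22ra1 replicate 2, where the adjusted p reached 0.0581 in the same test. Rps6, whose phosphorylation by S6 kinase is a common readout of mTOR signalling, was 681 ± 132 and 684 ± 32.6 CPM, and Rpsa, which is also known as a laminin receptor, was 2500 ± 542 and 2331 ± 189 CPM.

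Rps20, a protein of the small-subunit head (chr4:3831334-3835665, minus strand), was the only small-subunit gene that fell in this test. It ranged from 192 to 315 CPM in sh-ctrl (median 227) and from 177 to 221 CPM in sh-Il22ra1 (median 199). The groups overlapped, with 3 sh-ctrl libraries above all sh-Il22ra1 libraries and replicates 4 and 1 highest. The mean was 243 ± 52.8 against 201 ± 17.2 CPM (log2 change -0.27, SE 0.109; edgeR quasi-likelihood test, Benjamini-Hochberg adjusted p = 0.0459). The call was kept in 5 of the 12 fits that left out 1 library and was lost without sh-ctrl replicate 1, 4 or 5 and without sh-Il22ra1 replicate 1, 3, 4 or 5, where the adjusted p reached 0.118 in the same edgeR test. Without sh-ctrl replicates 1 and 4 together the log2 change was -0.08. Rps20 was called lower in 13 of the 28 alternatives. It was not called after the correction for length and GC content alone, and was called lower when a replicate block was added to that correction.

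The 3 paralogs with enough reads were all higher, with a median log2 change of 0.60. Rpl7l1, a relative of Rpl7 found in precursors of the large subunit (chr17:46773907-46782672, minus strand), ranged from 149.8 to 174 CPM in sh-ctrl (median 159) and from 226 to 262 CPM in sh-Il22ra1 (median 242). The groups did not overlap, and the spread within each was small. The mean rose from 159.9 ± 10.1 to 242 ± 12.4 CPM, 1.51-fold (log2 change 0.60, SE 0.0569; edgeR quasi-likelihood test, Benjamini-Hochberg adjusted p = 9.50e-08). Rpl7l1 reads per 100 Rpl7 reads were 38.6 to 54.5 in sh-ctrl and 54.4 to 65.6 in sh-Il22ra1, ranges that overlapped slightly. The coding sequences of Rpl7 and Rpl7l1 were identical at 56.9% of aligned positions, and 9.19% of the windows of the Rpl7l1 transcript occurred in another gene.

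Rps27l, a paralog of Rps27 that p53 induces (chr9:66946086-66949516, plus strand), ranged from 86.7 to 122 CPM in sh-ctrl (median 98.6) and from 111 to 131 CPM in sh-Il22ra1 (median 119). Only sh-ctrl replicate 1 lay within the sh-Il22ra1 range. The log2 change was 0.24 (SE 0.0746; edgeR quasi-likelihood test, Benjamini-Hochberg adjusted p = 0.0104), and it was 0.01 after the correction for length and GC content (adjusted p = 0.936 by the same edgeR test). Rpl36al, a paralog that the symbol rule did not take, was 79.0 ± 12.0 and 86.0 ± 5.12 CPM and was not called.

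The other paralogs were near the limit of detection. Rpl3l, a paralog of striated muscle, had 5 reads over the sh-ctrl libraries and 10 over the sh-Il22ra1 libraries. Rps4l, a paralog of Rps4x that GENCODE M21 lists as a transcribed processed pseudogene, had 25 and 27 reads. Rpl39l, known from testis, had 7 reads in sh-ctrl and 0 in sh-Il22ra1, which allows up to 0.0333 CPM over that group. Rpl10l, another testis paralog, had 0 reads in all 12 libraries, which allows up to 0.0169 CPM over all of them. These limits cover counting error only. None of these genes passed the filter for the reported test; with no filter Rpl39l was called lower.

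Also 4 core genes had almost no reads: Rpl26 had 1 read over all 12 libraries, Rpl34 had 19 in sh-ctrl and 31 in sh-Il22ra1, Rpl30 had 29 and 46, and Rps27 had 50 and 38. Their proteins are core parts of the ribosome. In the GENCODE M21 transcripts, 98.6% of the 50-base windows of Rps27 also occurred in another gene, 79.2% of those of Rpl30, 61.0% of those of Rpl26 and 37.9% of those of Rpl34. Such copies were common in the whole family, with a median of 49.3% of windows shared and 41 of the 84 members above 50%. The copies Gm15772 (of Rpl26), Rps27rt (of Rps27) and Rpl34-ps1 (of Rpl34) were counted as genes and had 0 reads. Reads with several alignments made up 3.76% to 4.12% of sh-ctrl reads and 4.11% to 4.40% of sh-Il22ra1 reads, and their part in these low counts was not tested. Levels of members with many copies are therefore uncertain. Across the 76 tested members the log2 change had a Spearman correlation of 0.235 with the share of windows in common with other genes, of -0.216 with transcript length and of 0.0392 with GC content, where all points share the same 12 libraries.

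Ribosomal protein reads made up 4.13% ± 0.572 of gene reads in sh-ctrl (lowest 3.49%, median 4.02%, highest 4.97%) and 4.55% ± 0.214 in sh-Il22ra1 (4.24%, 4.59%, 4.78%). These ranges overlapped: sh-ctrl replicate 4 was above every other library and replicate 1 was within the sh-Il22ra1 range, while the other 4 sh-ctrl libraries were below every sh-Il22ra1 library. The ratio between the subunits was apart in the groups. The large subunit had 1.24 to 1.32 times as many reads as the small subunit in sh-ctrl and 1.35 to 1.44 times as many in sh-Il22ra1, without overlap.

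**Figure D4:**
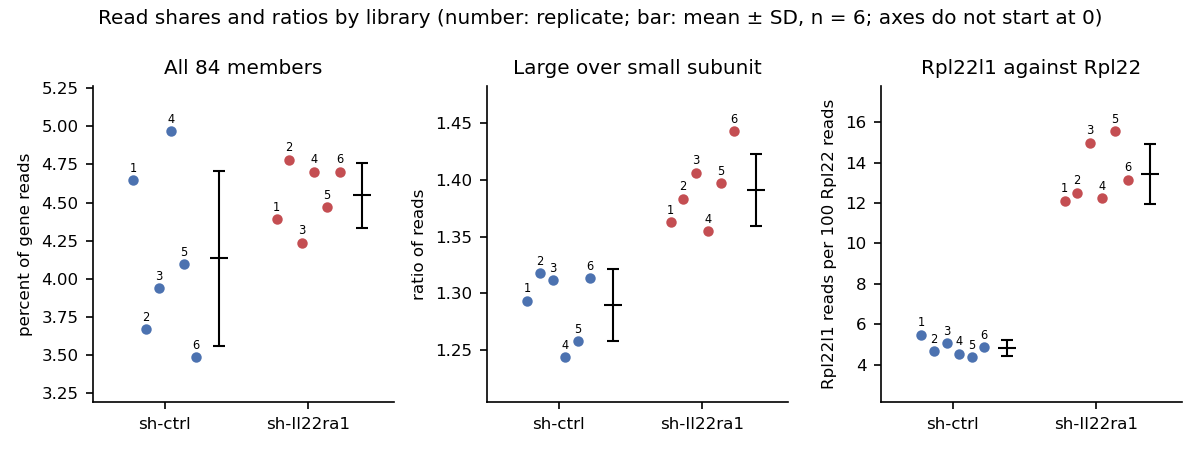
Reads of all 84 ribosomal protein genes as a percent of gene reads (left), the ratio of large-subunit to small-subunit reads (middle) and Rpl22l1 reads per 100 Rpl22 reads (right) in each library, with replicate numbers and the mean ± SD of 6 libraries. Axes do not start at 0. The groups overlap on the left, where sh-ctrl ranges from 3.49% to 4.97%, and are apart in the other panels. On the right this follows from the separation of Rpl22 and Rpl22l1 themselves.

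To see how members moved against each other, libraries were also scaled to the ribosomal protein reads alone, a choice made after seeing the data. This scaling shifted the median log2 change of all tested genes to -0.17, and values are relative to the other ribosomal proteins. On it 8 members were higher and 8 lower, with 38.3% of all tested genes called (8.22% higher and 30.1% lower), and 7 higher and 5 lower members had groups that did not overlap, against 17.8% of all tested genes. In the large subunit 5 of 40 were higher (Rpl7a, Rpl9, Rpl13, Rpl13a and Rpl31) and 1 was lower (Rpl22, log2 change -0.73). In the small subunit 1 of 30 was higher and 6 were lower, namely Rps20 (-0.41), Rps12 (-0.30), Rps18 (-0.29), Rpsa (-0.24), Rps27a (-0.22), which is made as a fusion with ubiquitin, and Rps9 (-0.19). Rplp0 was lower too (-0.15), and Rpl22l1 (0.75) and Rpl7l1 (0.44) were higher. Rps20 was separated on this scale: 5436 to 6304 per 1e+06 ribosomal protein reads in sh-ctrl and 4227 to 4619 in sh-Il22ra1. The correction for length and GC content gave medians of 0.06 for the large and -0.05 for the small subunit, with 8 higher and 4 lower of 40 and 2 higher and 9 lower of 30.

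**Figure D5:**
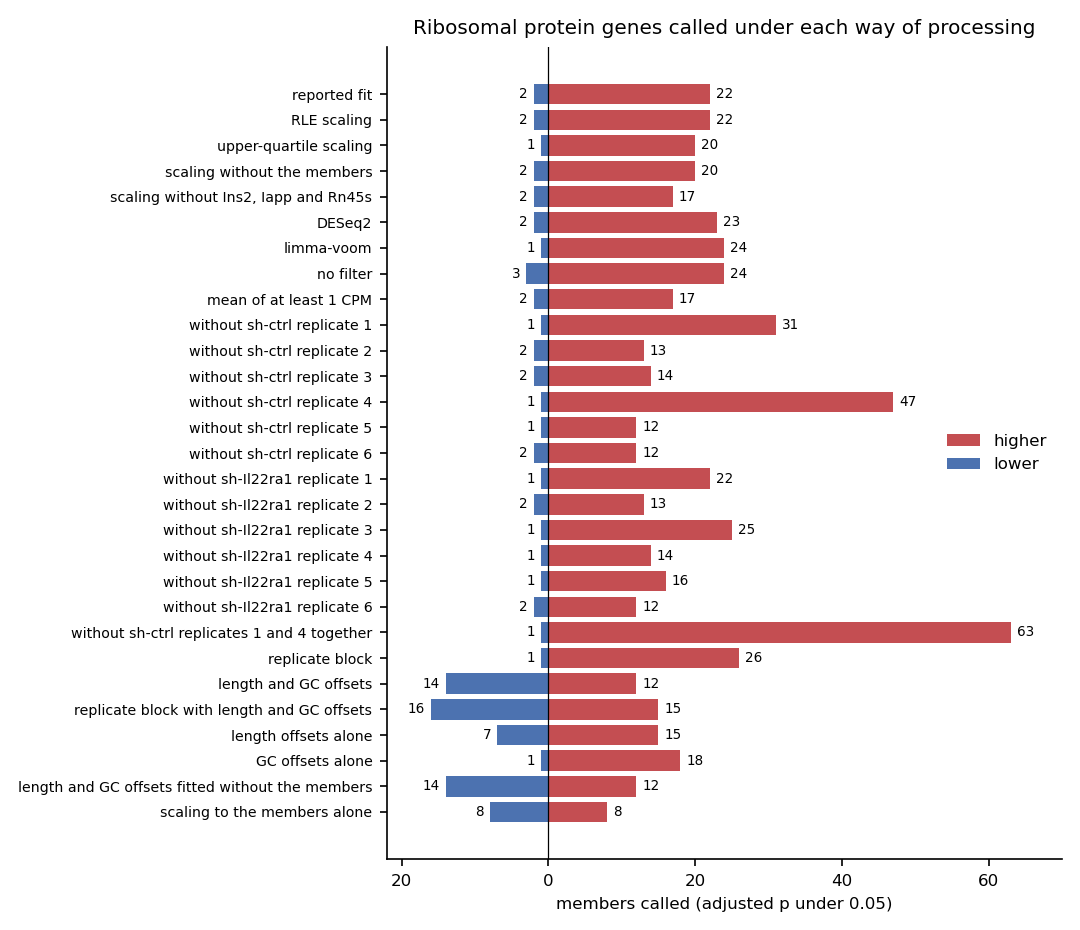
Number of ribosomal protein genes called higher (right of 0, red) and lower (left of 0, blue) at an adjusted p under 0.05 in the reported analysis (22 and 2) and in each alternative. The bars are longest without sh-ctrl replicates 1 and 4 together (63 higher), the sh-ctrl libraries with the largest share of ribosomal protein reads. Lower genes number 14 to 16 under the joint length and GC corrections and 8 under scaling to the members alone.

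A total of 7 members were called in the same direction in all 28 alternatives: Rpl22 (lower) and Rpl7a, Rpl7l1, Rpl13, Rpl13a, Rpl22l1 and Rpl31 (higher). The share of all tested genes called in every alternative is not given here, so this count cannot be set against a background. Over those alternatives the log2 change ranged from -0.73 to -0.46 for Rpl22 and from 0.69 to 1.04 for Rpl22l1. For the markers of the family, Rpl22 and Rpl13, the signs were thus opposite under every alternative run, and Rpl13 ranged from 0.17 to 0.46.

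The promoters of 3 of these genes, Rpl22 and the higher genes Rpl13 and Rpl7a, are printed to show the sequence ahead of their annotated starts. The annotated first bases of the mRNAs are not in these stretches. Each line gives the 80 bases ahead of the more upstream of the RefSeq and GENCODE M21 starts, from the RefSeq table of GRCm38.p6 (the assembly of mm10), plus strand. Capitals mark matches, on either strand, to CTTTC and CTTCC (short pyrimidine runs), TATAAA (the TATA box), CGGAAG (a core bound by ETS factors) and TCGCGA (a palindrome). The same stretches of Rpl22l1 and Rpl7l1, also among the 7 genes above, held no match to any of these motifs and are not printed. Rpl22 is at chr4:152325646-152325725, Rpl13 at chr8:123102270-123102349 and Rpl7a at chr2:26910684-26910763.
Rpl22: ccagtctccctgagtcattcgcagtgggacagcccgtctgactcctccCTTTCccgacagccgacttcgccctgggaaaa
Rpl13: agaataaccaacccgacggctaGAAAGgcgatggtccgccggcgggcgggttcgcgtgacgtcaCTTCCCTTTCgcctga
Rpl7a: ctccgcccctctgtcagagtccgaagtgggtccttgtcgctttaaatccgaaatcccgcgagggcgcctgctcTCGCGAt
RefSeq windows of 300 bases, 250 before and 50 after the start, were found for 63 members (75 windows). CGGAAG occurred on either strand in 45 of them and in 16.9% of all 32851 windows, and TCGCGA in 15 of them and in 2.50% of all. CTTCC was in 93.3% of the members' windows against 71.4%, CTTTC in 81.3% against 57.3% and TATAAA in 9.33% against 13.6%. These are matches of letters only.

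Genes that make and control ribosomes were compared with the members through lists chosen by function. Of 20 tested genes of RNA polymerase I and rRNA transcription, 6 were higher and 0 lower, among them Polr1e (log2 change 0.54). Of 43 snoRNP and rRNA processing genes 12 were higher and 3 lower, namely Mphosph10 (-0.52), Rcl1 (-0.35) and Utp15 (-0.22). Bop1 and Pes1, partners in a complex needed to mature the large-subunit rRNA, had log2 changes of 0.48 and 0.40. Of 32 assembly, export and maturation factors 11 were higher and 1, Noc2l (-0.15), was lower. Among the higher were the GTPase Lsg1 (0.36) and the nuclease Nob1 (0.35), which act late on the large and the small subunit. The median log2 changes of these 3 lists were 0.13, 0.06 and 0.17. Their shares of higher genes, 30%, 27.9% and 34.4%, were near the 25.4% of all tested genes. Their shares of lower genes were 0%, 6.98% and 3.12% against 26.5%.

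Other genes have mRNAs that start with the same pyrimidine run but encode no ribosomal protein. Of 17 tested, 2 were higher and 4 lower, with a median log2 change of -0.06. Eif4b, an initiation factor that helps unwind mRNA, fell from 123 ± 8.45 to 56.3 ± 3.73 CPM (log2 change -1.12, SE 0.0633; edgeR quasi-likelihood test, Benjamini-Hochberg adjusted p = 9.76e-11), and Tpt1 also fell (-0.31). In a list of 27 genes of mTOR signalling, RNA-binding proteins and transcription factors, 8 were higher and 8 lower: Maf1 (0.59) and the kinases Rps6kb1 (0.45) and Rps6kb2 (0.43) were higher, and the translation repressor Eif4ebp1 (-0.62) and Larp7 (-0.59) were lower. Of 21 genes of ribosome quality control 7 were higher and 5 lower, with Mdm2 at 0.36 and the rescue factor Hbs1l at -0.61. The shares of higher genes in the lists of this paragraph were 11.8%, 29.6% and 33.3%, against 25.4% of all tested genes. The shares of lower genes were 23.5%, 29.6% and 23.8%, against 26.5%.

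Mitochondrial ribosomal proteins, which build the separate ribosome of that organelle, were compared with the cytosolic ones. Of 77 tested, 43 were higher (55.8%, against 25.4% of all tested genes) and 7 lower (9.09%, against 26.5%), with a median log2 change of 0.20. Mrps14 (0.62) and Mrpl18 (0.59) were higher and Mrpl54 (-0.78) was lower. Their reads took 0.456% to 0.573% of gene reads in sh-ctrl and 0.551% to 0.585% in sh-Il22ra1. The difference between both families was not tested. Of the cytosolic ribosomal proteins that the symbol rule left out, Fau, which is made as a fusion with a relative of ubiquitin, had a log2 change of 0.05 and was not called. Rack1, a signalling scaffold on the small subunit counted under its older symbol Gnb2l1, was higher (log2 change 0.27; edgeR quasi-likelihood test, Benjamini-Hochberg adjusted p = 0.00480).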

How the data were processed

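Total RNA of 12 Min6 samples was sequenced as paired ends (VAHTS Universal V6 kit, per the labels' protocols). The authors deposited whole-number read counts for 24421 gene symbols per library; HISAT2 2.0.5, HTSeq and mm10 are named in the submitters' processing notes, while annotation and strand setting are not given in these sources. Rows of reads assigned to no gene (23.5% to 31.7% of a file) were left out. A deposited CPM table was not used. Treatment labels of sh-Il22ra1 replicates 2 to 6 carry a gene name with a rising last digit, and their titles decided the group.

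Counts were fitted in R 4.3.3 with edgeR 4.0.16 (filterByExpr with a minimum count of 10 and a minimum total of 15, TMM, quasi-likelihood test, Benjamini-Hochberg over 13102 genes, threshold 0.05, two-sided), without a replicate block, and the code was tested on simulated data. The SE is the size of the log2 change divided by the square root of F. The members and lists were chosen with earlier results of these data known. Full values are given for Rpl22, Rpl13, paralogs with reads, the 6 called members of smallest p in each direction and separated members with a log2 change of at least 0.5 in size; untested members are named with their reads, and up to 3 called genes a direction come from each other list. Members named beyond this rule were chosen after their values were seen. Alternatives were other scalings, filters and tools (DESeq2 1.42.0, limma 3.58.1), left-out libraries, a replicate block, and splines (4 degrees of freedom) on transcript length and GC content; 4 were added after seeing the data. Copies were found as 50-base windows shared between GENCODE M21 transcripts. Of the 24421 symbols 24054 had a transcript length and GC content in GENCODE M21, and alignments used Biopython 1.88. Values of a few genes are not reported here, although counts over the family include them.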

Additional observations from a re-analysis of the deposited data

Results flagged for a closer look

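In the sh-Il22ra1 group the Rplp1 level of replicate 2, 684 CPM, lay far from the other 5 libraries, further than Dixon's test at 95% allows. Rplp1 is a stalk protein of the large subunit, and the gene was not called between the groups. Chance alone marks about 1 in 20 groups in this way, and 152 were examined (76 genes in 2 groups).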

How the results depend on the processing

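Limits include the unknown independence of the 6 libraries of a group, the spread of the sh-ctrl libraries, where replicates 1 and 4 carried more ribosomal protein reads, and the short, often copied transcripts of the family. The reported 22 higher and 2 lower members became 12 to 47 higher and 1 to 2 lower when 1 library was left out, and 63 and 1 without sh-ctrl replicates 1 and 4 together. The share of all tested genes called was 47.3% to 56.9% with 1 library left out and 59.8% without that pair. Leaving out that pair favoured higher calls, because it carried the most ribosomal protein reads in sh-ctrl. The second lower gene, Rps20, was called in 13 of the 28 alternatives. Upper-quartile scaling and limma-voom each left 1 lower member, with 51.8% and 52.1% of all tested genes called. Length and GC offsets gave 12 higher and 14 lower, without Rps20 among them. Of the alternatives added after seeing the data, length offsets alone gave 15 higher and 7 lower, with a median log2 change of 0.04. GC offsets alone gave 18 higher and 1 lower, with a median of 0.15. Of all tested genes 55.3% were called with length offsets alone and 53.7% with GC offsets alone. Both offsets fitted without the members gave 12 higher and 14 lower, with 57.5% called. Scaling to the members alone gave 8 higher and 8 lower, with 1077 genes of all tested genes higher against 3323. The cause of these shifts was not tested.

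Signs turned for some members. Length and GC offsets gave log2 changes of -0.21 for Rpl10, -0.16 for Rpl23a, -0.12 for Rpl4, -0.12 for Rplp0, -0.16 for Rps21, -0.17 for Rps23, -0.17 for Rps26 and -0.18 for Rps6. Offsets fitted without the members gave -0.20 for Rpl10, -0.16 for Rpl23a, -0.12 for Rpl4, -0.12 for Rplp0, -0.15 for Rps21, -0.17 for Rps23, -0.17 for Rps26 and -0.18 for Rps6. Length offsets alone gave -0.14 for Rpl10, and scaling to the members alone gave -0.15 for Rplp0. None of these genes was called in the reported analysis.

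Libraries with the same replicate number showed no clear pairing: the correlations of their deviations from the group means were 0.153, -0.033, 0.143, 0.229, 0.030 and 0.050, and 3 of 12 libraries correlated best with their own number. Over all pairs the correlations ran from -0.228 to 0.234. Whether replicate numbers pair the libraries cannot be told from this. With the replicate block 26 members were higher and 1 was lower, with 53.6% of all tested genes called. The replicate block with length and GC offsets gave 15 higher and 16 lower members, Rps20 among the lower, with 59.4% of all tested genes called. In that fit log2 changes were -0.21 for Rpl10, -0.16 for Rpl23a, -0.12 for Rpl4, -0.12 for Rplp0, -0.16 for Rps21, -0.17 for Rps23, -0.17 for Rps26, -0.0917 for Rps4x and -0.18 for Rps6.

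With no filter 24 members were higher and 3 lower, the third being Rpl39l (7 reads against 0), a filter at 1 CPM on the mean gave 17 and 2, and the counts were 23 and 2 with DESeq2 and 22 and 2 with RLE scaling. In that order, 35.9%, 52.6%, 53.3% and 51.9% of all tested genes were called in these fits. The other 7 members that the filter left out were not called without it or had no reads.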
